A study of Homo sapiens with 21 samples.

Results

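The 40 interferon-induced genes described here were followed through the peaks of open chromatin around them in microglia-like cells. They are a list of 40 symbols out of 19970 protein-coding genes, and their regions were found by position alone. Peaks of the 21 libraries that overlapped by 1 bp or more were joined, which gave 166736 regions, and each region went to the nearest protein-coding gene span within 100 kb. Of the 131157 regions placed at a gene in this way, 156 (0.119%) lay at a member, and 39 of the 40 members had at least 1. IFI27, which codes for a small membrane protein strongly induced by type I interferon, had none.

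Interferons are secreted proteins that alert cells to viruses. Type I interferon binds the receptor pair IFNAR1 and IFNAR2, the kinases JAK1 and TYK2 pass the signal on, and a transcription factor complex that holds IRF9, named ISGF3, binds the interferon-stimulated response element (ISRE) in front of its target genes. Interferon-gamma acts largely through a second element, the gamma-activated site (GAS). Microglia, the macrophages of the brain, respond to both, and a subset with raised expression of these genes has been described in ageing and diseased brain.

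Open chromatin was measured by ATAC-seq, which marks DNA that a transposase can reach, on microglia-like cells derived from the embryonic stem cell line H9. Each of 7 isogenic lines gave 3 libraries. All lines passed through a haematopoietic progenitor stage, microglial differentiation then took 28 days, and 80000 sorted viable cells were used per line. The question the groups address is whether edits at 4 genes linked to Alzheimer's disease change the chromatin of these cells.

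The lines were TREM2-R47H and TREM2-KO (TREM2 is a lipid-sensing receptor of microglia), SORL1-A528T and SORL1-KO (SORL1 is an endosomal sorting receptor), CD33 SNP (CD33 is an inhibitory sialic acid receptor), INPP5D SNP (INPP5D is an inositol phosphatase) and unedited WT. Every edit was made with CRISPR/Cas9 and was homozygous, the SORL1-KO line being named SORL1R744X in the protocol. H9 is heterozygous at the edited INPP5D site, so INPP5D SNP was compared with a heterozygous WT. Edited lines were isolated as clones; the number of clones behind each was not given in the sources used here. Libraries titled SORL1-A528T carry TREM2-KO as their genotype label and were grouped by title. No label ties the replicates to separate differentiations, and p-values therefore rest on a spread between libraries that may be technical. In bulk libraries, fewer cells with an open site and less open DNA per cell cannot be told apart.

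The libraries differed most by replicate number. The 7 replicate 1 libraries held 56.5 to 67.4 M sequenced tags (M for mega), the 7 replicate 2 libraries 12.8 to 17.5 M and the 7 replicate 3 libraries 32.6 to 52.9 M. The lists held 39736 to 102891 peaks, the shortest being SORL1-A528T replicate 2, whose header also gives an estimated fragment length of 494 bp against 74 bp in every library of replicates 1 and 3. WT replicate 2 (262 bp) and INPP5D SNP replicate 2 (186 bp) also stood apart from the other replicate 2 libraries (136 bp). Of 12 marker genes of microglia and macrophages, 8 had a peak at the gene start, or at either end where no strand was known, in all 21 libraries, CSF1R, AIF1 and TREM2 in 18 or 19, and TMEM119 in none. Of the pluripotent markers, POU5F1, NANOG and LIN28A had none in any library, DPPA4 had one in 6 and LIN28B in all 21, and CD3E and NCAM1, from a list of lymphoid markers, had one in all 21.

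The gene start was taken from the RefSeq promoter table (build GRCh38.p14), which holds 31 of the 40 members and 15811 protein-coding genes in all. Each of its windows runs from 250 bases before to 50 bases after the start. The 8 windows below are printed here because together they span what was seen at the starts of the members. A peak lay within 1 kb of the start in all 21 libraries for IFIH1 and DDX60, in 20 for ISG15 and IFI6, in 17 for IFIT1, in 3 for IFI44L and in none for GBP1. SAMD9L is the contrast, a start called in all 21 libraries whose window holds no ISRE core. Capitals mark each match to the ISRE core, which is GAAA, any 2 bases and GAAA again. A match on the opposite strand reads TTTC, any 2 bases and TTTC, and overlapping matches run together as 1 stretch of capitals.
IFIH1, chr2:162318635-162318934, minus strand: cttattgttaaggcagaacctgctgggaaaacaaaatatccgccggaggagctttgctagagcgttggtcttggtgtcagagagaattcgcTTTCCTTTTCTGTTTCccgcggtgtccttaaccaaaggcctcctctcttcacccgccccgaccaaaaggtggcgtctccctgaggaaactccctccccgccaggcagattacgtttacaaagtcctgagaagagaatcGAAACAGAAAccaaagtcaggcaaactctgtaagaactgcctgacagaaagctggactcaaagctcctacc
DDX60, chr4:168318703-168319002, minus strand: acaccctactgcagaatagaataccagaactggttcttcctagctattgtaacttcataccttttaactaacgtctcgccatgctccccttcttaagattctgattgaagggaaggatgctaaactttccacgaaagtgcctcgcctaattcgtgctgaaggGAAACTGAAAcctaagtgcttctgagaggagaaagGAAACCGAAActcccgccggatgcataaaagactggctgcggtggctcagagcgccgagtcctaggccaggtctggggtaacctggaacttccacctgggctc
ISG15, chr1:1013247-1013546, plus strand: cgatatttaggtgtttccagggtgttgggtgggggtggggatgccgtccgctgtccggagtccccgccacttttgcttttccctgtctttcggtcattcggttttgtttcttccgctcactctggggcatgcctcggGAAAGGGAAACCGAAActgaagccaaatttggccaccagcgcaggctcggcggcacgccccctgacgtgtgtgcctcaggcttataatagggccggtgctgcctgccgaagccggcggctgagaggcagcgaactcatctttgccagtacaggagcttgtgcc
IFI6, chr1:27672143-27672442, minus strand: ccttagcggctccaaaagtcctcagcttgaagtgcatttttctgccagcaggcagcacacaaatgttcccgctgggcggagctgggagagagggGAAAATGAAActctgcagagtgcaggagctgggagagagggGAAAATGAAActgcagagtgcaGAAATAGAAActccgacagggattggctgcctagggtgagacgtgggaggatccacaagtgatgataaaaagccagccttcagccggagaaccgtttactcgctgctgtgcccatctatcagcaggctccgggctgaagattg
IFIT1, chr10:89392373-89392672, plus strand: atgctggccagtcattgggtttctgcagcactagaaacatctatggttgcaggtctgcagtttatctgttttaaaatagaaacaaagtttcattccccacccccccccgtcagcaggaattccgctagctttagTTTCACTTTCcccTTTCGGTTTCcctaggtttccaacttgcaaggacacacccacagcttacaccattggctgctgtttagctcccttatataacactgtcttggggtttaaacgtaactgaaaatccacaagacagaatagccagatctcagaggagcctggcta
IFI44L, chr1:78620198-78620497, plus strand: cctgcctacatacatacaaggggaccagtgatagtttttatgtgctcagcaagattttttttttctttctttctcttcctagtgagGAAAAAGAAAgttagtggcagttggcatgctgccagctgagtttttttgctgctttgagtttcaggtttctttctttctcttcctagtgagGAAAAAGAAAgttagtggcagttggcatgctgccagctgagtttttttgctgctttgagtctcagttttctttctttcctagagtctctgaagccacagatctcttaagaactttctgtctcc
GBP1, chr1:89065159-89065458, minus strand: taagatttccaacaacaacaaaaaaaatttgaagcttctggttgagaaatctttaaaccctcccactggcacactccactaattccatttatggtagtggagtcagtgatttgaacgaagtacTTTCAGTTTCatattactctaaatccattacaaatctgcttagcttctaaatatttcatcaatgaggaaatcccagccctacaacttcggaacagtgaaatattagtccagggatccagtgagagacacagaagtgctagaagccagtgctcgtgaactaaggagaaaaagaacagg
SAMD9L, chr7:93148336-93148635, minus strand: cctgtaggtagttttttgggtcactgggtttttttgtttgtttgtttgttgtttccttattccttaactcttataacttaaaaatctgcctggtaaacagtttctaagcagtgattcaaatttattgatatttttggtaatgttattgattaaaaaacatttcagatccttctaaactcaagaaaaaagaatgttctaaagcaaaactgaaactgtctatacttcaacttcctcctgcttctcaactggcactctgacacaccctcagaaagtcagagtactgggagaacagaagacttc
An ISRE core was present in 19 of the 31 member windows (61.3%), against 502 of all 15811 windows (3.18%). A match is a description of these letters and does not show binding. Only this exact spacing was counted, so a window without a match can still hold a close form. The windows of OAS1, RSAD2, RIGI and XAF1, for example, hold gaaacgaaa, which has a shorter gap. IFIT5, IFI6, IFIH1 and HERC5 held 3 matches each, while OAS1, RSAD2, IFI16, IFI35, RIGI, IRF1, IRF9, HERC6, XAF1, SAMD9L, PARP9 and CMPK2 held none in these 300 bases. The GAS core, which is TTC, any 3 bases and GAA and reads the same on both strands, was found in 8 member windows (25.8%), against 1104 of all windows (6.98%). BST2 held 2 GAS cores, and IRF1, IRF9, OAS1, IFI35, IFI27, PARP14 and DDX60 held 1 each. MX2, IFIT2, OAS2, OASL, DHX58, IRF7, USP18, GBP2 and TRIM22 have no window in the table, and for them a peak within 1 kb of either end of the gene was counted.

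The member windows were poorer in GC than most. Their median GC content was 52.7%, against 62.7% over all windows, and their median number of CpG dinucleotides was 8, against 22. Of the 31 member windows 18 (58.1%) had a GC content under 55%, against 26.9% of all windows. The range among members was wide, the lowest being CMPK2 at 32.7% and the highest RSAD2 at 75.3%. The promoter-table starts of these 2 genes lie within 1 region of open chromatin.

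Starts of members were open in most libraries. Of the 31 members with a known start, 16 (51.6%) had a peak there in all 21 libraries, against 44.9% of all 15811 genes. GBP1 and IFI27 had none in any library (6.45%), against 26.2% of all genes. The other 13 were called in 1 to 20 libraries (41.9%), against 28.8% of all genes. Among the member windows under 55% GC, 8 of 18 were called in all 21 libraries (44.4%), against 24.9% of all windows under 55%. Members with an ISRE core were called in all 21 libraries in 7 of 19 cases (36.8%) and those without one in 9 of 12 (75.0%), while over all genes the shares were 37.5% with a core and 45.2% without. These shares are given as a description, and the members without an exact core include some with a close form. RSAD2 and CMPK2, both without a core, were each counted as a start through the same region.

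**Figure D1:**
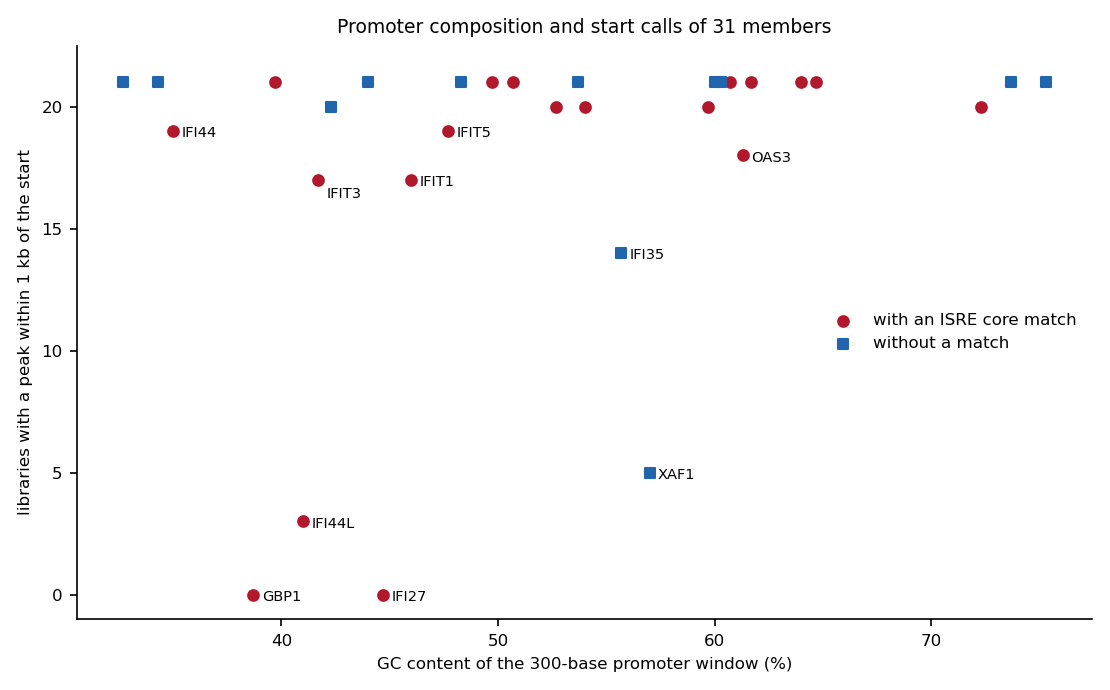
GC content of the 300-base promoter window (x axis, percent) against the number of libraries with a peak within 1 kb of the start (y axis, of 21) for the 31 members in the promoter table, by whether the window holds an ISRE core. The highest values, 20 and 21 libraries, occur at low and at high GC content, and XAF1, IFI44L, IFI27 and GBP1 sit at 5 or fewer.

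The sensors that start the response were open in every line. IFIH1, which codes for MDA5, a sensor of long double-stranded RNA, and RIGI, a sensor of short double-stranded and triphosphate-bearing RNA, had a peak at the start in all 21 libraries. The IFIH1 start lay in a region placed at the neighbour GCA, and that region stood at a median file-order percentile of 98.6, where 100 is the first peak of a list. Regions called in all 21 libraries had a median percentile of 82.1 and regions called in 1 or 2 libraries 9.81, so regions found in more libraries stood nearer the head of the lists. DHX58, which codes for LGP2, a regulator of the other sensors, had a peak at a gene end in 20 libraries and was missing from SORL1-A528T replicate 2.

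The transcription factors were open throughout as well. IRF1, IRF9 (the DNA-binding part of ISGF3) and IRF7 (an inducer of interferon genes) were called in all 21 libraries. For IRF7 this rests on regions that were placed at the neighbours PHRF1 and CDHR5, since the single region placed at IRF7 itself was called in 1 library. IRF1, a factor induced most by interferon-gamma, had 12 regions, as many as any member. Of these, 4 were called in all 21 libraries, 3 of them outside the gene at 4569, 12188 and 23448 bp from its span.

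Genes that block translation of foreign RNA were called less evenly. IFIT1, IFIT2, IFIT3 and IFIT5 belong to a family that binds foreign RNA and stops its translation. IFIT1 was called in 17 libraries and was missing only from replicate 2 of TREM2-R47H, TREM2-KO, SORL1-A528T and INPP5D SNP. IFIT3 was called in 17 and missing from replicate 2 of TREM2-KO, SORL1-A528T, INPP5D SNP and WT, and IFIT5 was called in 19. IFIT2, counted at either gene end, was called in 18. Every missing call of the 4 genes fell in a replicate 2 library, the libraries with the fewest tags.

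The OAS enzymes make short oligoadenylates that activate RNase L, and EIF2AK2 codes for PKR, a kinase that shuts down translation on double-stranded RNA. OAS1 was called in all 21 libraries, OAS3 in 18, OASL (an OAS-like protein that supports RIGI signalling) in 20 (not SORL1-A528T replicate 2) and EIF2AK2 in 20 (not WT replicate 2). OAS2 stood apart within the family. Its gene-end region was called in 3 of 3 TREM2-R47H libraries, 1 of 3 TREM2-KO, 0 of 3 SORL1-A528T, 1 of 3 SORL1-KO, 1 of 3 CD33 SNP, 2 of 3 INPP5D SNP and 1 of 3 WT libraries. Its 9 calls fell to 4 replicate 1, 1 replicate 2 and 4 replicate 3 libraries.

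In the ISG15 system, HERC5, the ligase that attaches the ubiquitin-like ISG15 to proteins, and its relative HERC6 were called in all 21 libraries. ISG15 itself was called in 20 and was missing from SORL1-A528T replicate 2. USP18, which removes ISG15 and also dampens the interferon receptor, was called in 17 and was missing from replicate 2 of TREM2-KO, SORL1-A528T, SORL1-KO and INPP5D SNP.

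The dynamin-like GTPases divided into open and closed starts. MX1 and MX2, which block incoming viruses, were called in all 21 libraries. GBP1, a guanylate-binding protein that coats intracellular pathogens, was called at its start in none, although a region 15326 bp from its span was called in all 21. GBP2 was called at a gene end in 3 libraries, TREM2-R47H replicates 1 and 3 and SORL1-A528T replicate 2, and low in those lists, at percentiles of 1.83 to 4.96.

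Most other antiviral effectors were called everywhere. By their promoter-table starts, RSAD2 (viperin) and its neighbour CMPK2, a nucleotide kinase, share 1 region, chr2:6863606-6867024. It was placed at CMPK2 and called in all 21 libraries at a median percentile of 96.4. Other starts of RSAD2 were not examined. A region inside RSAD2, chr2:6875993-6878315, was called in 20 libraries (not INPP5D SNP replicate 2) at a median percentile of 48.2. SAMD9 and SAMD9L, which restrict poxviruses, ISG20, an RNA exonuclease, DDX60, an RNA helicase of the sensor pathway, the ADP-ribosyltransferase family members PARP9 and PARP14, and TRIM22, a TRIM-family restriction factor, were called in all 21. The PARP9 start lay in a region placed at DTX3L, whose product acts with PARP9. BST2 (tetherin), which holds budding virus at the cell surface, was missing only from SORL1-A528T replicate 2.

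Of the 13 uneven starts, 6 belonged to IFI genes and XAF1. IFI6, an endoplasmic reticulum protein, and IFI16, a sensor of DNA, were called in 20 libraries, missing from SORL1-A528T replicate 2. IFI44 was called in 19, and IFI35 in 14. IFI44L, the neighbour of IFI44, was called at its start in TREM2-R47H replicates 2 and 3 and in INPP5D SNP replicate 3 and in none of the other 18 libraries, although a region 2228 bp from its span was called in all 21. XAF1, a promoter of cell death, was called in TREM2-R47H replicates 1 and 3 and in replicate 1 of TREM2-KO, SORL1-KO and CD33 SNP, and in no WT library.

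**Figure D2:**
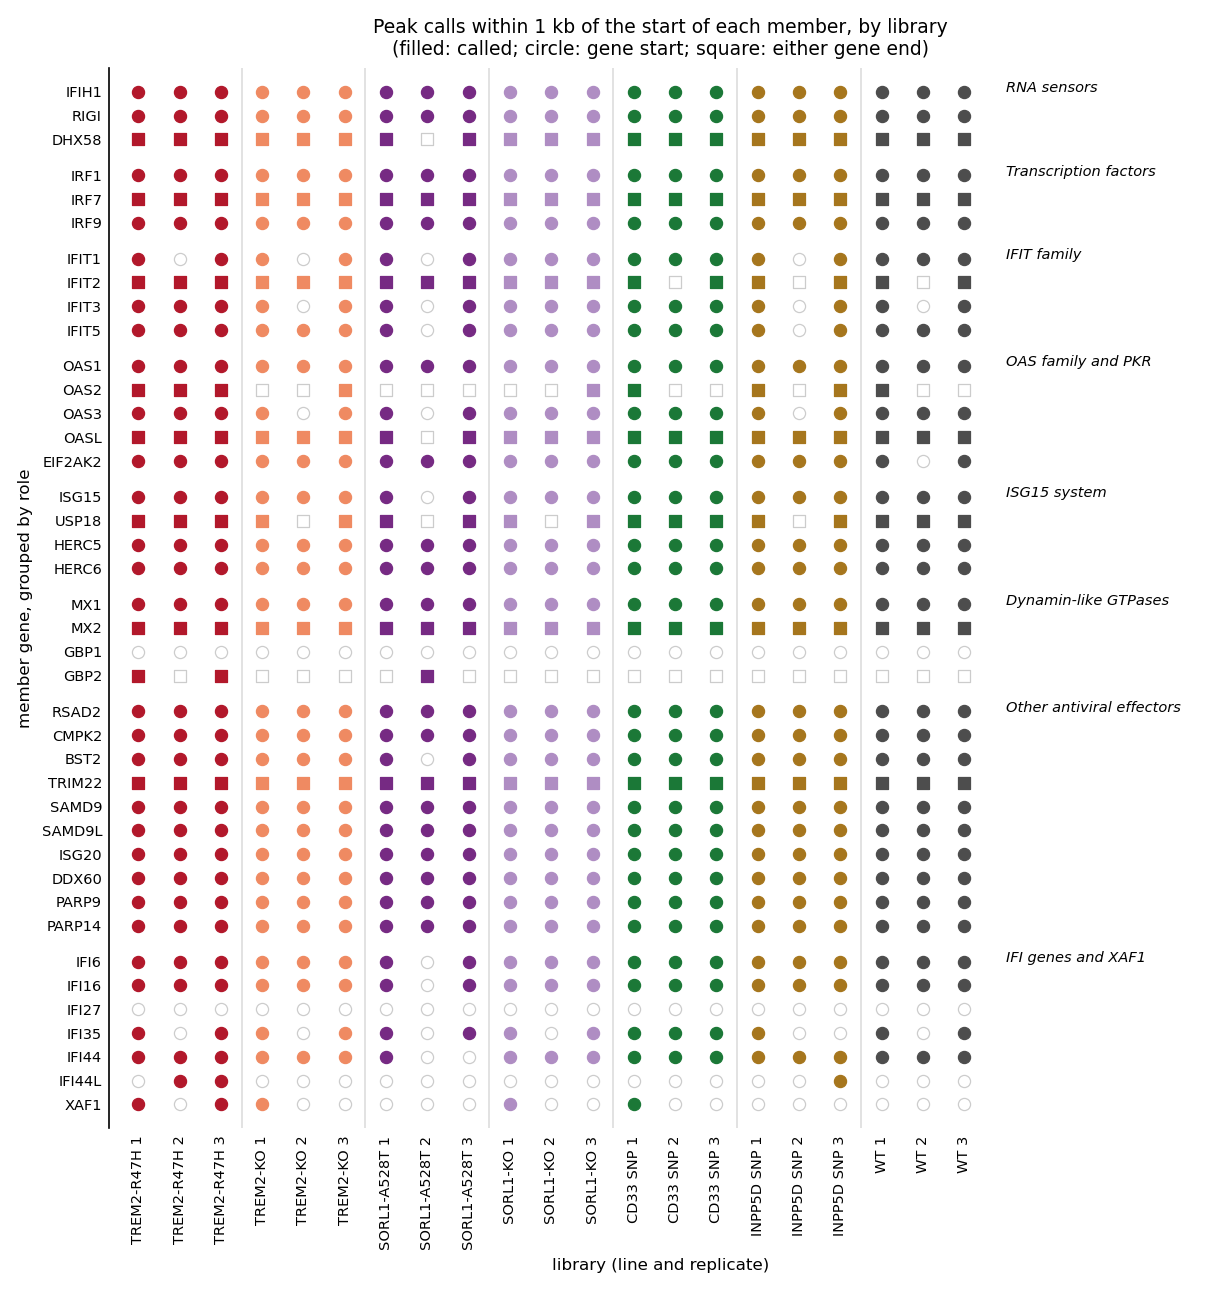
Peak calls at the start of each of the 40 members (rows, grouped by role) in each of the 21 libraries (columns, edited lines left and WT right); filled symbols are calls, circles gene starts and squares either gene end. Missing calls of the IFIT genes sit in replicate 2 columns, and IFI44L, XAF1, GBP1, GBP2 and IFI27 are empty in most columns.

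Over the 13 starts that were called in some libraries and not in others, 61 calls were missing. Of these, 10 fell in replicate 1, 38 in replicate 2 and 13 in replicate 3 libraries. By line, 4 were missing in TREM2-R47H, 9 in TREM2-KO, 17 in SORL1-A528T, 6 in SORL1-KO, 5 in CD33 SNP, 11 in INPP5D SNP and 9 in WT. When replicate 2 was left out of every line, 25 of 31 starts (80.6%) were called in all 14 remaining libraries, against 60.6% of all genes. Without SORL1-A528T replicate 2 alone it was 20 of 31 (64.5%), against 49% of all genes. The 6 starts missing from some or all of the replicate 1 and 3 libraries were IFI27 and GBP1, called in none, and IFI35, IFI44, IFI44L and XAF1. When instead a library had to cover at least 50% of a region, 7 of 31 starts (22.6%) were called in all 21, against 16.7% of all genes. With the start of the gene span in place of the promoter-table start, 14 of 31 (45.2%) were, against 44.4% of all genes. ISG20 and DDX60 were then no longer among them, and 4 members had no call in any library. With lists of equal length it was 15 of 31 (48.4%), against 41.6% of all genes.

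Counting all positions, the median was 3 regions per member and 3 per gene over all genes, and the mean was lower in members, at 3.9 against 6.57. There were 9 members with 1 region and 13 with 5 or more. The 156 regions comprised 28 at a gene start, 19 at another gene end, 52 inside and 57 outside the gene. Regions inside genes were 33.3% of member regions, against 52.6% of all assigned regions. Of the gene-start regions 13 (46.4%) were called in all 21 libraries, against 58.1% over all genes, and of the other gene-end regions 2 (10.5%), against 30.0%. Inside genes the count was 5 (9.62%, against 12.4% over all genes), 1 each in IFI16, IFIT3, MX2, RIGI and DDX60. Outside genes it was 10 (17.5%, against 13% over all genes): 3 at IRF1 and 1 each at IFI44L, GBP1, CMPK2, IFIH1, SAMD9, SAMD9L and ISG20. The ISG20 one lay 68472 bp from the gene and the SAMD9L one 1778 bp.

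The 5 members with the most regions differed in how steady these were. IRF1 and IFI44 had 12 each, and of all possible calls 49.6% were made at IRF1 and 19.8% at IFI44. Of the 12 IFI44 regions, 7 were called in 1 library only. DDX60 and IFI44L had 10 regions each, with 46.2% and 32.9% of possible calls made, and SAMD9 had 9, with 44.4%.

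**Figure D3:**
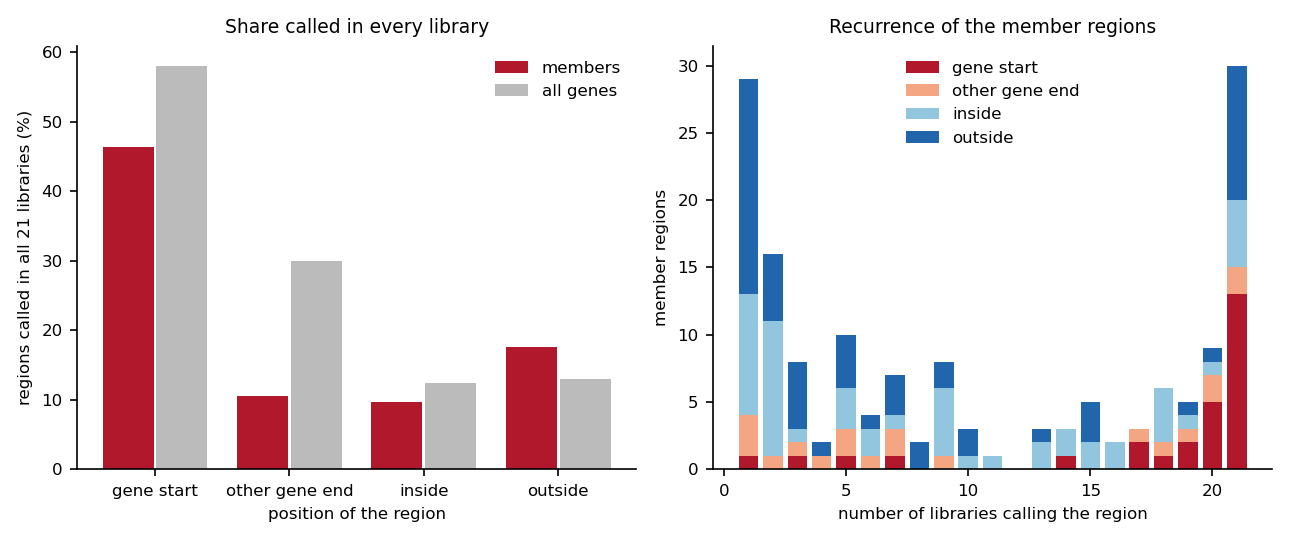
Left, share of regions called in all 21 libraries (y axis, percent) by position, for members and for all genes. Right, number of the 156 member regions (y axis) called in each number of libraries (x axis), stacked by position, with gene-start regions gathered at the right and most regions inside and outside genes further left.

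The share of member regions called varied with replicate number as well as with line. At gene ends (47 regions) it averaged 78.0% ± 11.7 in TREM2-R47H, 66.7% ± 9.83 in TREM2-KO, 58.2% ± 15.4 in SORL1-A528T, 72.3% ± 5.63 in SORL1-KO, 73.8% ± 6.84 in CD33 SNP, 65.2% ± 12.3 in INPP5D SNP and 68.1% ± 12.8 in WT (SD, n = 3 each). In the 109 regions away from gene ends it averaged 44.0% ± 18.1 in TREM2-R47H, 42.2% ± 13.5 in TREM2-KO, 32.7% ± 15.2 in SORL1-A528T, 38.8% ± 11.2 in SORL1-KO, 42.5% ± 13 in CD33 SNP, 37.6% ± 9.71 in INPP5D SNP and 42.5% ± 17.8 in WT. The lines overlap in both classes, and in each line the lowest library was replicate 2.

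To set depth aside, the depth-adjusted call was used. It is the call (1 or 0) less the average that the library gave to all regions of equal recurrence, that is, found in the same number of libraries. A positive value means more calls than regions of that recurrence had in that library. At the gene ends of members, the 3 TREM2-R47H libraries stood at 0.0438, 0.0587 and 0.127, against 0.0290, 0.00728 and -0.0936 in the 3 WT libraries. All 3 TREM2-R47H values lay above all 3 WT values. The adjustment draws on regions at every position, not on gene ends alone. Over the gene ends of all genes, 86.95%, 69.76% and 84.1% were called in TREM2-R47H replicates 1, 2 and 3. In WT it was 84.86%, 59.69% and 81.04%, lower at each replicate number. Members alone stood at 78.72%, 65.96% and 89.36%, against 80.85%, 55.32% and 68.09% in WT. Whether members differ from other gene ends in this was not tested. In the depth-adjusted call at member gene ends, SORL1-KO stood at 0.0385, 0.0441 and 0.0187 and overlapped WT. TREM2-KO, SORL1-A528T, CD33 SNP and INPP5D SNP overlapped WT as well. Away from gene ends, TREM2-R47H stood at 0.0224, -0.0252 and 0.0805, against 0.0108, -0.00217 and -0.00452 in WT, and overlapped it. A rise of interferon genes as a list in TREM2-R47H was already known from these libraries when the members were chosen, so its direction here is not independent evidence, and no p is given for it. Over all 156 regions the difference between the line means was 0.0459, and 0.00598 without replicate 3 of both lines.

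**Figure D4:**
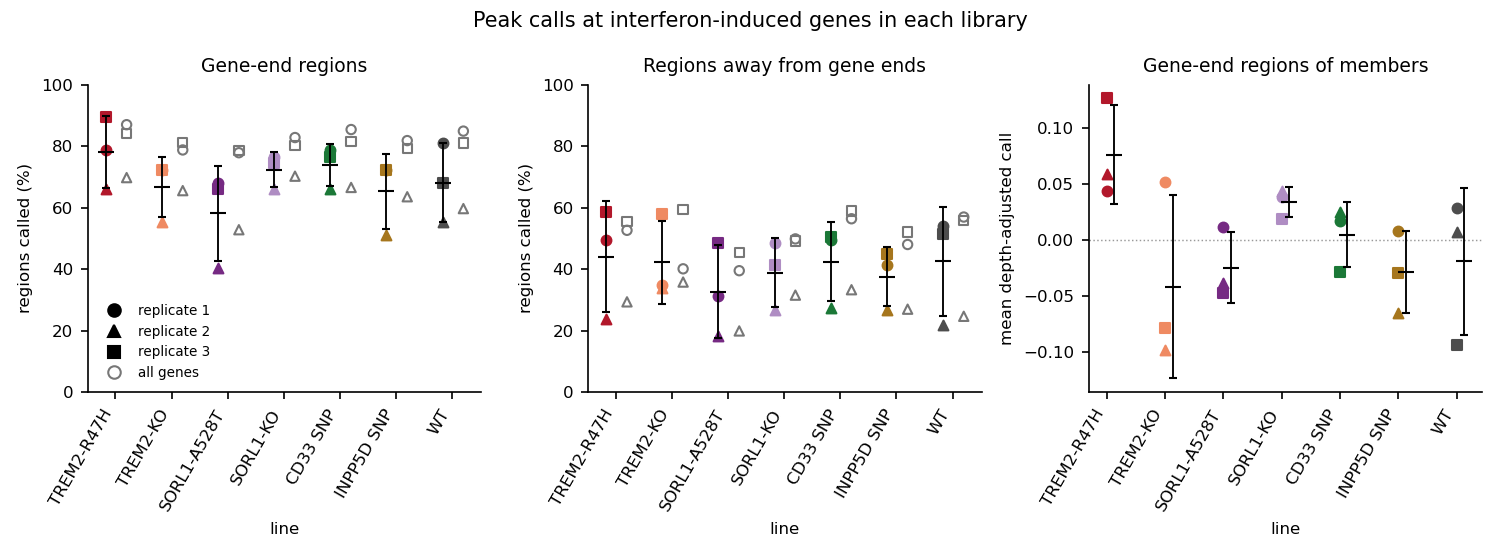
Share of gene-end regions (left) and of regions away from gene ends (middle) called in each library, for members (coloured) and for all genes (open), and mean depth-adjusted call at the gene ends of members (right), by line. Symbols are replicates and bars the mean and SD of 3 libraries of members; the 3 TREM2-R47H values on the right lie above the 3 WT values.

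Single genes were tested with limma on the mean depth-adjusted call per gene, for the 8419 genes with at least 5 regions, with Benjamini-Hochberg adjustment over all of them. There were 13 members with enough regions: CMPK2, DDX60, HERC6, IFI6, IFI16, IFI44, IFI44L, IFIH1, IRF1, ISG20, PARP14, RSAD2 and SAMD9. No member passed an adjusted p of 0.05 in any of the 8 comparisons. Where groups are said below not to overlap, an exact test of 3 against 3 values cannot go below p 0.1. The share of all genes without overlap is not given, so this is a description. Members not named for it were also without overlap, among them IFIH1 in TREM2-R47H against WT and PARP14 in INPP5D SNP against WT. Calls were simulated for TREM2-R47H against WT over 7910 genes, independently for each region and library. Correlations between same-numbered libraries, given below, were not simulated. The test found 39 of 100 genes whose call rate had been raised by up to 0.5, no rate exceeding 1. It found 12 of 100 raised by up to 0.3. The median differences of these sets were 0.296 and 0.21, and most of the changed genes were missed. Of the 7710 unchanged genes, 1 was called higher and 4 lower (0.0649%), so some calls were false.

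TREM2-R47H against WT gave 0 of 13 members called by limma, against 0% of all genes, and 2 members with an unadjusted p under 0.05, both higher. ISG20 stood at 0.0735, 0.0570 and 0.199 in the TREM2-R47H libraries, against -0.0684, -0.0410 and -0.0641 in WT, and the groups did not overlap (difference 0.168, SE 0.0658, limma adjusted p 0.509). IFI16 stood at 0.0823, 0.0420 and 0.249 in TREM2-R47H, against 0.0341, -0.0857 and -0.152 in WT, again without overlap (difference 0.192, SE 0.0903, limma adjusted p 0.577). Of the 13 members 10 were above 0, with a median difference of 0.0526, and of all genes 54.5% were above 0, with a median of 0.00748. An unadjusted p under 0.05 was reached by 8.58% of all genes.

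Regions called in every library of one line and no library of the other are called all-or-none here. No member region had 3 of 3 calls in TREM2-R47H with 0 of 3 in WT (0.125% of all assigned regions did), and none had the reverse (0.277% did). Leaving out replicate 2, 5 of 156 member regions had 2 of 2 calls in TREM2-R47H with 0 of 2 in WT, against 1.75% of all assigned regions. They were the XAF1 start, chr17:6755676-6756407, a second region near XAF1, the GBP2 gene end, a region inside IFIH1 and a region outside IRF1. Another 3, of which 2 lay inside DDX60 and 1 outside IFI44L, had 0 of 2 calls in TREM2-R47H with 2 of 2 in WT (2.46% of all). One of the DDX60 regions, chr4:168294923-168295423, was called in WT replicates 1 and 3 and in no other library, so it recurs in each comparison with WT.

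TREM2-KO against WT gave 0 of 13 members called by limma (0% of all genes), and 1 member with an unadjusted p under 0.05, beside 3.5% of all genes. IFIH1 stood at 0.150, 0.0223 and 0.265 in TREM2-KO, against -0.0731, -0.0887 and -0.0533 in WT, without overlap (difference 0.217, SE 0.0692, limma adjusted p 0.999). In every comparison the IFIH1 test rests on 8 regions, 7 inside and 1 outside the gene, without the region at its start. Members above 0 numbered 4 of 13, against 42.6% of all genes. No member region was all-or-none in either direction (0.0435% and 0.0579% of all assigned regions). Without replicate 2, a region inside IFIH1 and a region outside SAMD9L were called in 2 of 2 TREM2-KO and 0 of 2 WT libraries (0.348% of all), and 4 member regions in 0 of 2 and 2 of 2 (2.09%).

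SORL1-A528T against WT gave 0 of 13 members called by limma (0% of all genes), and 1 member with an unadjusted p under 0.05, beside 4.04% of all genes. RSAD2 stood at -0.283, 0.0170 and -0.158 in SORL1-A528T, against 0.294, 0.0744 and -0.0919 in WT, with the groups overlapping (difference -0.234, SE 0.102, limma adjusted p 0.978). Without WT replicate 1 the RSAD2 difference was -0.139. Members above 0 numbered 4 of 13, against 49.7% of all genes. No member region was all-or-none, in a comparison where 0.00839% of assigned regions were called only in SORL1-A528T and 0.457% only in WT. Without replicate 2, 1 member region near OAS2 was called in SORL1-A528T only (0.285% of all) and 7 in WT only (5.57%).

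SORL1-KO against WT gave 0 of 13 members called by limma (0% of all genes), and 2 members with an unadjusted p under 0.05, 1 in each direction, beside 4.73% of all genes. Members above 0 numbered 9 of 13, with a median of 0.0293, against 52.5% of all genes and a median of 0.00556. DDX60 stood at -0.110, -0.0955 and -0.118 in SORL1-KO, against 0.163, -0.0462 and 0.276 in WT, without overlap (difference -0.239, SE 0.0955, limma adjusted p 0.934). When all lists were given the same length the DDX60 difference was 0.00742, on the other side of 0. IFI16 stood at 0.0864, 0.228 and 0.0850 in SORL1-KO, against 0.0341, -0.0857 and -0.152 in WT (difference 0.201, SE 0.0903, limma adjusted p 0.934). No member region was called in 3 of 3 SORL1-KO and 0 of 3 WT libraries (0.0648% of all assigned regions). One was called in 0 of 3 SORL1-KO and 3 of 3 WT libraries (0.194% of all), a region 1386 bp from TRIM22, chr11:5712249-5713019. It was called in 1 of 3 TREM2-R47H, TREM2-KO, SORL1-A528T and INPP5D SNP libraries and in 2 of 3 CD33 SNP libraries, and with equal list lengths it was not all-or-none. Without replicate 2, 0 member regions were called in SORL1-KO only (0.648% of all) and 5 in WT only (2.82%), 3 of them inside DDX60.

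CD33 SNP against WT gave 0 of 13 members called by limma (0% of all genes) and 0 with an unadjusted p under 0.05, beside 2.53% of all genes. Members above 0 numbered 5 of 13, with a median of -0.0378, against 53.7% of all genes and a median of 0.00625. No member region was all-or-none (0.0945% of assigned regions only in CD33 SNP, 0.0366% only in WT). Without replicate 2, 1 member region inside IFIH1 was called in CD33 SNP only (1.36% of all) and 4 in WT only (0.948%).

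INPP5D SNP against WT gave 0 of 13 members called by limma, against 0.0119% of all genes (1 of 8419), and 0 members with an unadjusted p under 0.05, beside 2.91% of all genes. Members above 0 numbered 7 of 13, against 51.4% of all genes, with a median of 0.000182. No member region was called in 3 of 3 INPP5D SNP and 0 of 3 WT libraries (0.0297% of all). A region inside MX2, chr21:41367568-41368415, was called in 0 of 3 INPP5D SNP and 3 of 3 WT libraries (0.132% of all). It was called in 1 or 2 of 3 libraries of every other line, low in the lists at a median percentile of 8.64, and with equal list lengths it was not all-or-none. Without replicate 2, 1 member region, near SAMD9L, was called in INPP5D SNP only (0.501% of all) and 4 in WT only (2.28%).

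TREM2-R47H against TREM2-KO compares the TREM2 alleles. It gave 0 of 13 members called by limma (0% of all genes), and 3 members with an unadjusted p under 0.05, beside 13.9% of all genes. IFI16 was at 0.0823, 0.0420 and 0.249 in TREM2-R47H, against -0.0412, -0.209 and -0.171 in TREM2-KO, without overlap (difference 0.265, SE 0.0903, limma adjusted p 0.250). ISG20 was at 0.0735, 0.0570 and 0.199 in TREM2-R47H, against 0.00367, -0.132 and -0.125 in TREM2-KO, also without overlap (difference 0.194, SE 0.0658, limma adjusted p 0.250). IFIH1 was lower, at 0.00551, -0.0124 and -0.0505 in TREM2-R47H, against 0.150, 0.0223 and 0.265 in TREM2-KO (difference -0.165, SE 0.0692, limma adjusted p 0.307). These values come from the fit without a replicate block. Blocking on replicate number, 60 of all 8419 genes and again 0 members were called.

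Between these lines, a region inside RSAD2, chr2:6880175-6880935, had 3 of 3 calls in TREM2-R47H with 0 of 3 in TREM2-KO (0.371% of all assigned regions did), and no member region had the reverse (0.265% did). This region was called in 2 of 3 WT libraries. Without replicate 2, 11 of 156 member regions were called in 2 of 2 TREM2-R47H and 0 of 2 TREM2-KO libraries, against 3.23% of all assigned regions, and 1, near SAMD9L, the other way (0.843%). The 11 lay at CMPK2, DHX58, GBP2, HERC6, IFI16, MX1, OAS3, OASL, RSAD2, SAMD9 and XAF1, 1 at each.

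SORL1-A528T against SORL1-KO gave 0 of 13 members called by limma (0% of all genes), and 3 with an unadjusted p under 0.05, all lower, beside 6% of all genes. RSAD2 was at -0.283, 0.0170 and -0.158 in SORL1-A528T, against 0.210, -0.00947 and 0.208 in SORL1-KO, and the groups overlapped (difference -0.277, SE 0.102, limma adjusted p 0.694). IFI16 was at -0.0378, -0.153 and -0.0784 in SORL1-A528T, against 0.0864, 0.228 and 0.0850 in SORL1-KO, without overlap (difference -0.223, SE 0.0903, limma adjusted p 0.742). IFIH1 differed by -0.168 (SE 0.0692, limma adjusted p 0.751). A region inside IFI16, chr1:159005483-159006364, was called in 0 of 3 SORL1-A528T and 3 of 3 SORL1-KO libraries (1.11% of all assigned regions), and no member region the other way (0.0877%). The same IFI16 region was called in 2 of 3 TREM2-R47H, 0 of 3 TREM2-KO and 1 of 3 WT libraries. Without replicate 2, 1 member region, near GBP1, was called in SORL1-A528T only (0.801% of all) and 7 in SORL1-KO only (3.93%).

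**Figure D5:**
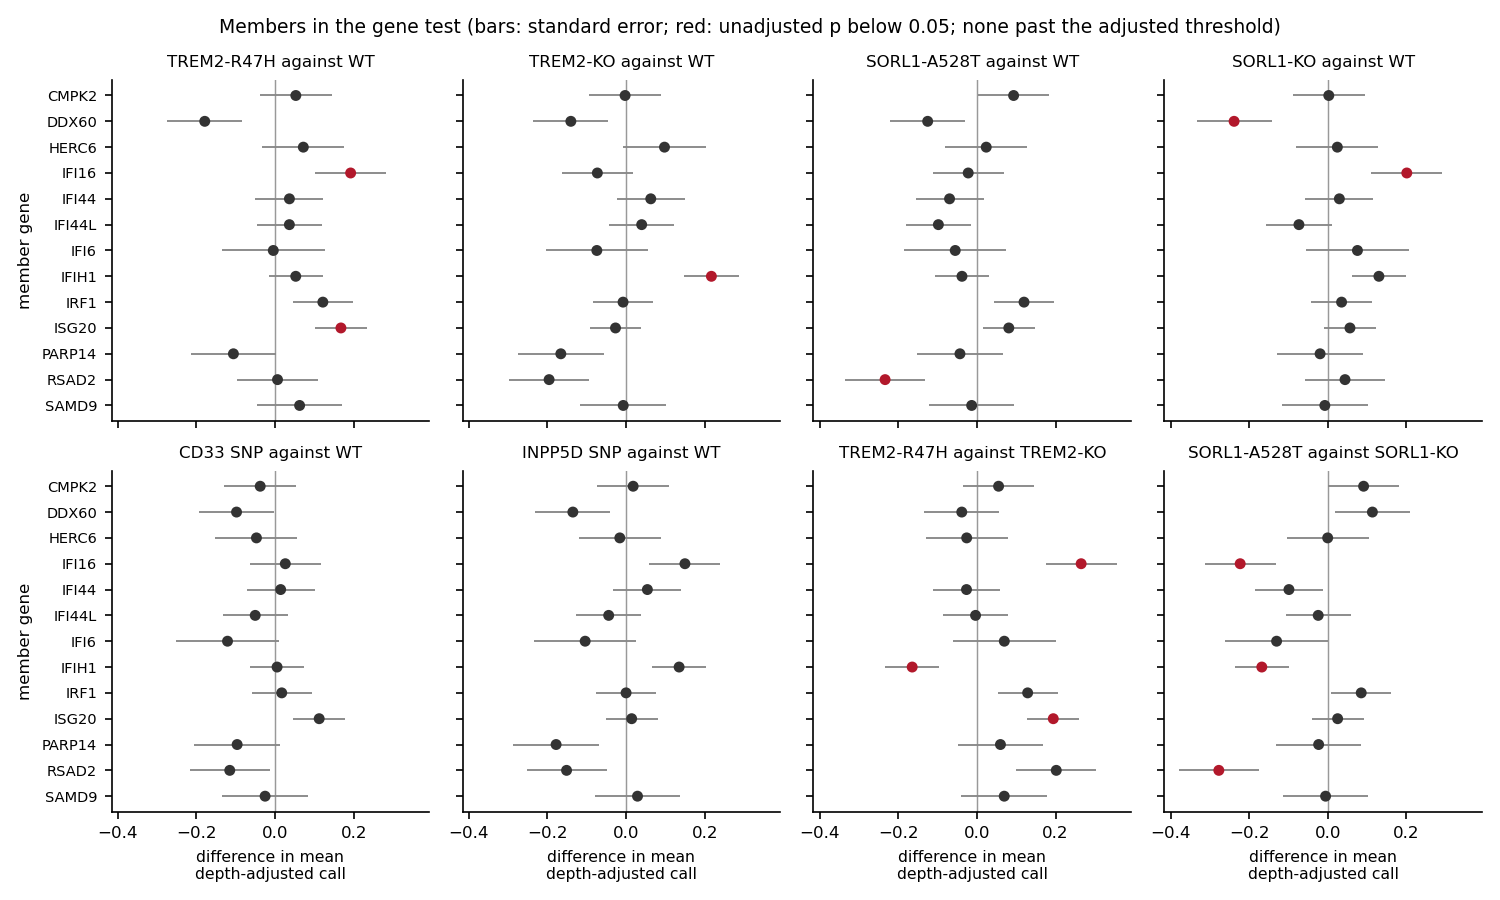
Difference in mean depth-adjusted call (x axis) with its standard error for the 13 members in the gene test, in each of the 8 comparisons, first line of each title minus second. Red points have an unadjusted p under 0.05 and none passed the adjusted threshold; IFI16 and ISG20 lie to the right in both TREM2-R47H panels.

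The comparisons against WT share its 3 libraries, and the TREM2 and SORL1 lines each appear in more than 1 comparison, so a member that recurs, as IFI16 does, is not seen independently each time. IFI16 has 5 regions, of which 1 was called in all 21 libraries and so can show no difference.

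The wider interferon pathway was examined through 122 further genes, among them receptors, kinases, other IRFs, sensors and adaptors, brakes and other induced genes. Of these, 60 had at least 5 regions and 0 were called by limma in any of the 8 comparisons. The gene with the smallest unadjusted p was TNFSF10, which codes for the death ligand TRAIL, in TREM2-R47H against WT (difference 0.200, SE 0.0623, limma adjusted p 0.454) and in INPP5D SNP against WT (difference 0.168). It was TRIM14, an adaptor of antiviral signalling, in TREM2-KO against WT (difference -0.231). IFNGR2, a chain of the interferon-gamma receptor, came first in SORL1-KO against WT (difference 0.328, SE 0.0974, limma adjusted p 0.934), and TLR8, an endosomal RNA sensor, in CD33 SNP against WT (difference 0.269). IRF4, a lymphoid and myeloid factor, came first in SORL1-A528T against WT (difference 0.195) and against SORL1-KO (difference 0.201). PML, the organiser of nuclear bodies, came first in TREM2-R47H against TREM2-KO (difference 0.395, SE 0.103, limma adjusted p 0.187). Against WT, 43 of the 60 were above 0 in TREM2-R47H (54.5% of all genes), 24 in TREM2-KO (42.6%), 37 in SORL1-A528T (49.7%), 36 in SORL1-KO (52.5%), 32 in CD33 SNP (53.7%) and 37 in INPP5D SNP (51.4%). The median difference of the 60 was 0.0487 in TREM2-R47H, -0.00908 in TREM2-KO, 0.0367 in SORL1-A528T, 0.0436 in SORL1-KO, 0.0157 in CD33 SNP and 0.0218 in INPP5D SNP. The median of all genes lay between -0.0129 and 0.00748 in these comparisons. In TREM2-R47H against TREM2-KO 40 of the 60 were above 0 (58% of all genes), and in SORL1-A528T against SORL1-KO 34 (46.8%). This list too was chosen with earlier results of these data known, so its direction in TREM2-R47H is not independent evidence.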

How the data were processed

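Peak lists from ATAC-seq of 21 libraries were used, 3 from each of 7 lines. The submitters' processing notes name cutadapt 1.18, STAR 2.7, HOMER 4.10 and DESeq2, without the step each served. Per the file headers, HOMER called peaks in each library separately and without a control library, and the headers also hold the total tags. In the deposited lists the score of each peak is 1, so a list holds positions and an order but no height. Neither the genome build nor a shift of reads for the transposase cut was given in the sources used here. The lists were taken to be on GRCh38. Region coordinates follow the deposited lists, with the first base as 1.

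Of 1604926 peaks, 0.0821% lay on chromosomes Y or M and were dropped. Peaks overlapping by 1 bp were joined, and regions were placed at genes of a RefSeq table (GRCh38.p14, 19970 protein-coding genes, within 100 kb, 78.7% of regions placed). Where a region was equally near several spans, the gene with the nearest end was taken. Ties that remained, as when a region covers the ends of several genes, went to the first symbol in the alphabet. A gene end lies within 1 kb of the promoter-table start or of either end of the span. For 1519 of 15811 genes, 4 of them members, the promoter-table start lies over 1 kb inside the span. Gene tests used limma 3.58.1 in R 4.3.3 over all 21 libraries with line as the only term, and were tested on simulated data. The members and lists were chosen with earlier results of these data known.

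Genes named with values were members with uneven gene-end calls, with an all-or-none region, with an unadjusted limma p under 0.05, or among the 5 with the most regions, and per comparison the pathway gene with the smallest unadjusted p. Other genes, among them those listed without replicate 2, were chosen after their values were seen. Whether replicate numbers pair libraries was checked by correlating deviations from line means over genes between same-numbered libraries. All 3 correlations exceeded 0.1 only in TREM2-R47H against TREM2-KO (0.535, 0.291 and 0.184), where libraries of unlike number reached 0.316. In TREM2-KO against WT same-numbered libraries gave 0.0856 to 0.249 and unlike numbers at most 0.0621. In CD33 SNP against WT these were 0.0639 to 0.246 and at most 0.0442. The limit of 0.1 therefore does not show that other comparisons are unpaired. Only in TREM2-R47H against TREM2-KO were the numbers treated as pairs, for the blocked count of called genes. The differences, SEs and adjusted p-values printed for that comparison come from the fit without the block. The labels do not say what a number marks. Alternatives were a cover of 50% of a region, regions in at least 2 libraries, other minimum numbers of regions per gene, gene ends alone or left out, 10 kb in place of 100 kb, lists of equal length (39711 peaks), unadjusted calls, the replicate block, and leaving out each library or the SORL1-A528T libraries. Leaving out replicate numbers for calls per library and gene starts, leaving out SORL1-A528T libraries for gene starts, and the span start in place of the promoter start were added after seeing the data.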

Additional observations from a re-analysis of the deposited data

How the results depend on the processing

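No member passed the adjusted threshold in 142 further fits of the gene test; the lowest adjusted p of a member was 0.0636 (limma), for ISG20 in TREM2-R47H against TREM2-KO without TREM2-KO replicate 1, where 91 of all genes were called. With the replicate number as a block, 0 members were called in each comparison. Over all genes the block gave 60 calls in TREM2-R47H against TREM2-KO and 8 in SORL1-A528T against SORL1-KO, where 0 were called without it; outside the first of these the numbers were not treated as pairs. Of 175 alternative values of the 12 named differences, 172 kept their direction. The others were DDX60 in SORL1-KO against WT, at 0.00742 with lists cut to equal length, IFI16 in SORL1-KO against WT, at -0.00106 on gene ends alone, for both of which the cause was not tested, and DDX60 in SORL1-KO against WT on gene ends alone, at 0 because its single gene-end region was called in all 21 libraries.

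Counts of all-or-none member regions moved most. With lists cut to equal length they were 1 in TREM2-R47H and 1 in SORL1-A528T against WT, 0 in SORL1-KO and 0 in INPP5D SNP against WT, 3 in TREM2-R47H against TREM2-KO and 2 in SORL1-A528T against SORL1-KO, the last being 2 also at a cover of 50%. Leaving out 1 replicate number, which leaves 2 libraries a line, they ranged from 2 to 8 in TREM2-R47H, 0 to 6 in TREM2-KO, 2 to 8 in SORL1-A528T, 1 to 5 in SORL1-KO, 0 to 5 in CD33 SNP and 2 to 5 in INPP5D SNP against WT, from 2 to 12 in TREM2-R47H against TREM2-KO and from 2 to 8 in SORL1-A528T against SORL1-KO. The mean depth-adjusted call of members in TREM2-R47H against WT was 0.0823 with lists cut to equal length and 0.00598 to 0.0691 leaving out 1 replicate number. In SORL1-A528T against WT it was -0.0316 to 0.0235. Gene starts called in all libraries numbered 7 at a cover of 50%, 14 with the span start and 15 with lists cut to equal length. Leaving out 1 replicate number they were 16 to 25.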
